A study of Mus musculus with 87 samples.

Results

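The genes described here are the 6 that code for accessory proteins of Polycomb repressive complex 2 (PRC2) and that were targeted in mouse embryonic stem cells. They are Phf1, Mtf2 and Phf19, whose Polycomb-like products are named PCL1, PCL2 and PCL3, together with Jarid2, Aebp2 and Epop. They were taken by their Ensembl gene IDs, chosen because the genotypes of the series target them and not for any measured value. Earlier results of these data were known when they were chosen. Of the 6 IDs, 5 were matched among the 55450 IDs of the read count files, and all 5 passed the filter on low counts; the RNA of Epop is not analysed here. All 6 were set against 3 deposited lists of SUZ12, JARID2 and PCL2 peaks.

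RNA was measured in 24 libraries, 3 for each of 8 genotypes, among the 87 samples of the series. The genotypes were Pcl1-3 + Jarid2 + Aebp2 + Epop KO (called the full accessory knockout below), Pcl1-3 + Jarid2 + Aebp2 KO, Pcl1-3 + Jarid2 KO, Pcl1-3 + Epop KO, Pcl1-3 KO, Jarid2 + Aebp2 KO, Suz12 KO, which lacks a core subunit and leaves the 6 genes untargeted, and wild type (WT). Pcl1-3 KO means the joint knockout of Phf1, Mtf2 and Phf19, so none of these 8 genotypes lacks a single Polycomb-like gene. In the RNA libraries Aebp2 was targeted only together with Jarid2. All cells were grown on gelatin in 2i medium, and neither the alleles, nor how they were made, nor whether a genotype is 1 clone is stated. The strain label of the RNA libraries ends in a digit that rises by 1 with each genotype listed, from 129B6F1 for WT up to 129B6F8 for the full accessory knockout, while every ChIP library, knockouts included, is labelled 129B6F1. The digit may thus be an artefact of data entry, and whether the strains differ is unknown. Clone and genotype cannot be told apart. Libraries held 10148155 to 28442061 counts. Separate cultures are not stated for the 3 libraries of any genotype. A p-value here therefore reflects how far these libraries scatter, and that scatter may be technical only. It includes variation shared by libraries with the same replicate number, which the main fit does not remove.

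PRC2 methylates H3K27, and in embryonic stem cells this mark lies over silent developmental genes. Its core of EZH2 or EZH1, EED and SUZ12, with RBBP4 or RBBP7, associates with accessory proteins in alternative forms. One form holds a Polycomb-like protein, and it may also hold EPOP, which binds Elongin B and C, or a product of Lcor or Lcorl. The other holds JARID2, a member of the Jumonji family without demethylase activity, and the zinc finger protein AEBP2, which bind nucleosomes carrying ubiquitinated histone H2A. Polycomb-like proteins read methylated H3K36 through a Tudor domain and bind unmethylated CpG-rich DNA through a winged helix. In mouse embryonic stem cells MTF2 is generally taken as the main Polycomb-like protein.

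At their own starts the genes differed in which deposited peaks they carried, and Phf19 was the 1 of the 6 with peaks of all 3 proteins there. Positions are from RefSeq on GRCm38.p6, which shares its coordinates with mm10, the build in the submitters' processing notes. A gene was counted when a peak overlapped it or the 1 kb on either side by at least 1 bp. A SUZ12 peak was found at 1 of the 6 genes, against 24.2% of 21887 protein-coding genes. JARID2 peaks were found at 2 of 6, against 14.3%, and PCL2 peaks at 4 of 6, against 42.0%. These shares were not matched for gene length, and Jarid2 spans 190870 bp. With peaks of at least 1 kb only, each of the 3 lists had a peak at 1 of the 6 genes, which was Phf19, against 19.5% of protein-coding genes for SUZ12, 9.18% for JARID2 and 22.7% for PCL2. The lists carry no scores and no replicates, and neither the libraries nor the peak caller behind them are stated, so these positions have no measured error.

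Phf19 lies at chr2:34893752-34914353 on the minus strand. Its start fell inside a SUZ12 peak of 2353 bp (chr2:34912761-34915113), a JARID2 peak of 1530 bp (chr2:34912779-34914308) and a PCL2 peak of 2352 bp (chr2:34912675-34915026). The PCL2 peak was among the wider ones, since 8.92% of that list were at least as wide, whereas 21.9% of SUZ12 peaks and 32.9% of JARID2 peaks were at least as wide as those at Phf19. A further pair of PCL2 peaks, of 544 and 344 bp, lay inside the gene.

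Jarid2 lies at chr13:44730774-44921643 on the plus strand. A PCL2 peak of 348 bp ended 91 bp before its first start (chr13:44730336-44730683), and a second PCL2 peak of 378 bp lay inside the gene (chr13:44902941-44903318). A JARID2 peak of 323 bp (chr13:44755448-44755770) lay inside the gene, 24177 bp from the nearest annotated start. All 3 were narrow for their lists, with 90.2%, 83.3% and 95.9% of peaks at least as wide. Aebp2 (chr6:140622454-140678472, plus strand) held a PCL2 peak of 875 bp, 658 bp from the nearest of its 3 annotated starts (chr6:140623377-140624251). At Epop (chr11:97627387-97629716) a PCL2 peak of 736 bp crossed the end with the higher coordinate (chr11:97629541-97630276).

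Phf1 (chr17:26933127-26937908, plus strand) and Mtf2 (chr5:108065660-108109219, plus strand) had no peak of the 3 lists within 1 kb. The nearest peak to Phf1 was a PCL2 peak 8.3 kb away, and the nearest to Mtf2 was a PCL2 peak 78.3 kb away. By these lists, 1 targeted gene had peaks of all 3 proteins at its start, and 2 had none. Another 3 had a PCL2 peak at or near an end or inside the gene, of which Jarid2 also had an internal JARID2 peak. This grouping describes the lists and was not tested against the shares of protein-coding genes given above. With peaks of at least 1 kb only, Phf19 alone had any.

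**Figure D1:**
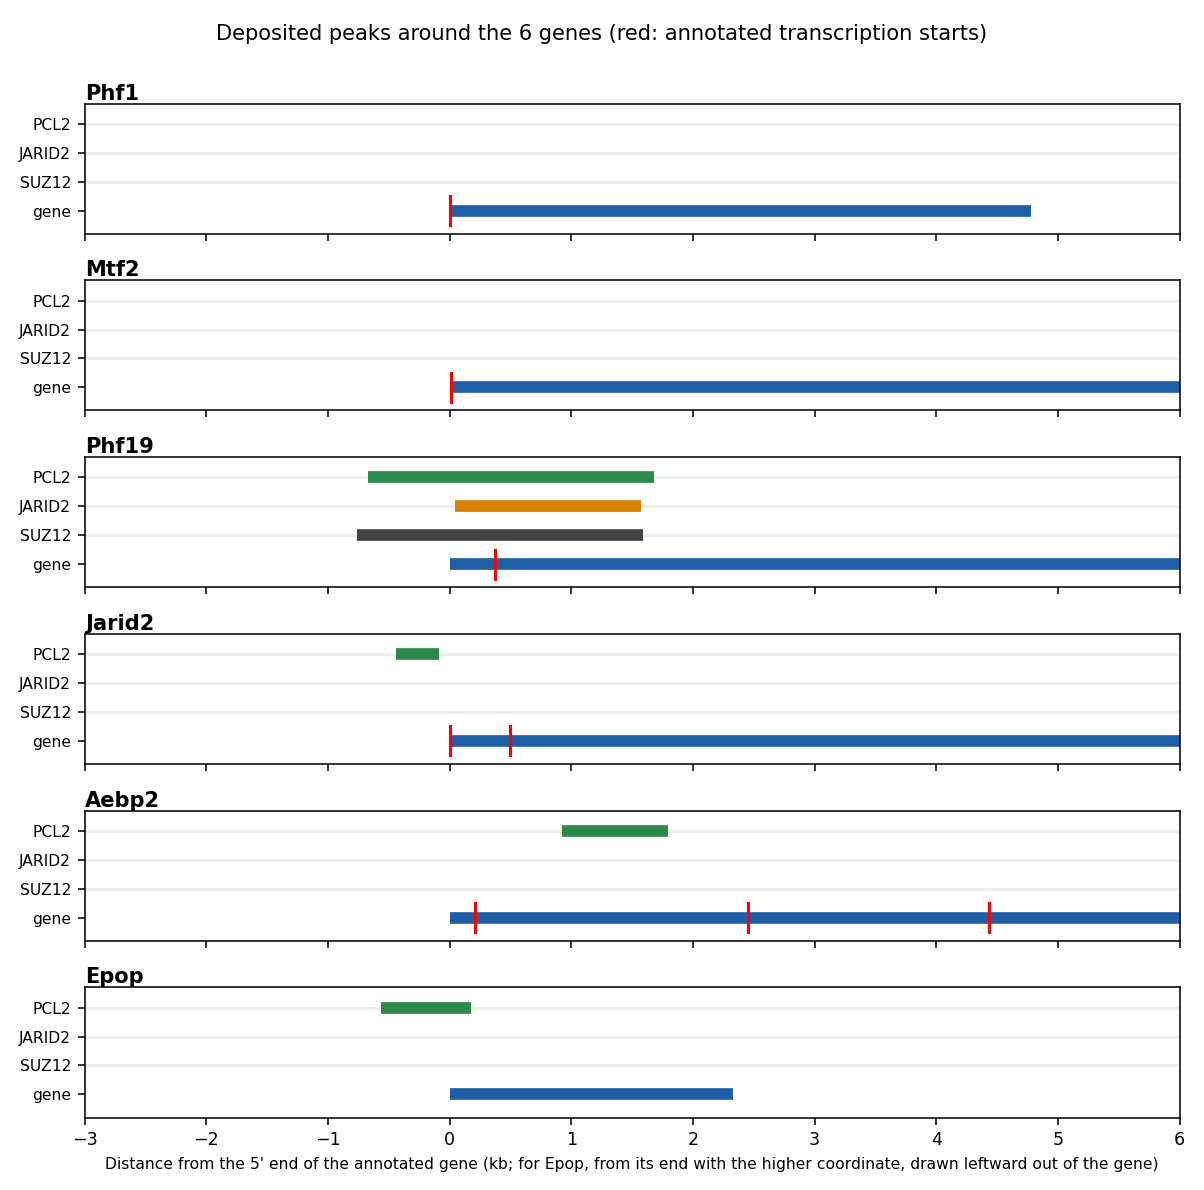
Positions of deposited SUZ12, JARID2 and PCL2 peaks (bars) around the 6 genes, as distance in kb from the 5' end of the annotated gene, with annotated transcription starts in red; for Epop, whose strand is not in the table used, distance runs from its end with the higher coordinate. Phf19 has a peak of each list over its start, Jarid2, Aebp2 and Epop a PCL2 peak near an end, and Phf1 and Mtf2 none in the window.

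Since Polycomb-like proteins bind CpG-rich DNA, the 250 bases before the first annotated start are shown for Phf19, whose start lies in peaks of all 3 lists, for Jarid2, whose start lies beside a PCL2 peak, and for Mtf2, which has none. Each is printed from 5' to 3' along the gene's own strand (RefSeq, GRCm38.p6), and the capitals mark every CG, which reads the same on both strands. Phf19 is chr2:34913977-34914226 (minus), Jarid2 is chr13:44730524-44730773 (plus) and Mtf2 is chr5:108065424-108065673 (plus).
Phf19: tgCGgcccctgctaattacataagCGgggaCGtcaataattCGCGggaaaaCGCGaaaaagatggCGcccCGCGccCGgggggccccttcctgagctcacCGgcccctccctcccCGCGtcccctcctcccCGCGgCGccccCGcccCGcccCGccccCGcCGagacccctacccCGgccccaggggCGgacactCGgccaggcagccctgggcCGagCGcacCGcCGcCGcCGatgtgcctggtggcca
Jarid2: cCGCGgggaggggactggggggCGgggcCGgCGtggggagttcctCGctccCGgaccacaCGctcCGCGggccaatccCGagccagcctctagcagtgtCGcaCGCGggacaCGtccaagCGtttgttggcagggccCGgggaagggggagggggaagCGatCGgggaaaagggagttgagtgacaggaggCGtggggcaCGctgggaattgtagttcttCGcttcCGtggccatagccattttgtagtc
Mtf2: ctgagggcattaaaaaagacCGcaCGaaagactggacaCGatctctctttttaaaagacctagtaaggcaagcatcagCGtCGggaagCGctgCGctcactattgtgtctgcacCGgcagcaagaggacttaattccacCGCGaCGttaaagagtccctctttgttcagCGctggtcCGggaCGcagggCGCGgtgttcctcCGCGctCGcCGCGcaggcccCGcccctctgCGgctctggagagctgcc

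The Phf19 window held 31 CG pairs, and 5.2% of 32817 promoter windows of that length hold at least as many; the median is 6. All 250 bases of it were covered by a peak of each list. The Jarid2 and Mtf2 windows held 23 each, as did that of Phf1, and 13.3% of windows hold at least as many. At their second annotated starts Jarid2 had 22 and Mtf2 had 2, with no peak over either window. The PCL2 peak covered 160 bases of the first Jarid2 window and no peak touched the first of Mtf2 or that of Phf1. Of the windows with 23 CG pairs, 1 was partly covered by a peak and 2 were not, and no link between CG pairs and peaks was tested. The 3 annotated starts of Aebp2 had 1, 14 and 3 CG pairs in their windows, and its PCL2 peak overlapped none of them.

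Taken over the genotypes that target it, each gene with counts was lower than in the others, but the 5 genes fell to very different remainders. Aebp2 and Phf1 were nearly without reads, Mtf2 and Jarid2 kept a few percent, and Phf19 kept 28.1% to 63.6% of the WT level. Levels are in CPM, read counts scaled by library size with TMM factors and not by gene length, so they are compared within a gene and not between genes. In bulk RNA, fewer cells that express a gene and less RNA per cell cannot be told apart. The change made to each gene is not given, and counts are summed over whole genes, so reads that remain do not show which part of a transcript was left.

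Phf1 (ENSMUSG00000024193.8) was read rarely in every genotype. Its read counts in replicates 1, 2 and 3 were 0, 1 and 2 in the full accessory knockout, 0, 0 and 0 in Pcl1-3 + Jarid2 + Aebp2 KO, 0, 0 and 2 in Pcl1-3 + Jarid2 KO, 0, 1 and 0 in Pcl1-3 + Epop KO and 0, 1 and 0 in Pcl1-3 KO. They were 35, 64 and 38 in Jarid2 + Aebp2 KO, 42, 54 and 35 in Suz12 KO and 22, 25 and 41 in WT. The 15 libraries that target Phf1 thus held 7 counts in all and the other 9 held 356, with no overlap.

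Relative to library size, the targeting libraries held 1.178% of the level of the others (95% exact counting interval 0.4702 to 2.452). In Pcl1-3 + Jarid2 + Aebp2 KO, with no count, Phf1 was at least 34.4-fold lower than the 88 counts of WT, taking 3 counts over the group as the floor. In the full accessory knockout 3 counts remained, 30.8-fold lower than WT with a counting interval of 10.2 to 152.3. Such intervals cover counting error only. The fitted difference was -6.36 on the log2 scale (SE 0.341, edgeR quasi-likelihood adjusted p = 3.97e-11). Its size depends on the default prior count of the edgeR fit, not the 2 used for log2 CPM, because most of the targeting libraries had 0. The annotation also places Mir6968 within Phf1, and Kifc5b and Cuta lie within 1 kb of it; whether reads were counted by strand is not stated.

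Mtf2 (ENSMUSG00000029267.17) kept a small and even remainder. Its level was 8.98, 9.93 and 13.6 CPM in the full accessory knockout, 9.69, 11.4 and 13.7 in Pcl1-3 + Jarid2 + Aebp2 KO, 8.13, 13.0 and 13.5 in Pcl1-3 + Jarid2 KO, 8.44, 11.0 and 17.6 in Pcl1-3 + Epop KO and 9.65, 9.06 and 14.9 in Pcl1-3 KO. In genotypes that do not target it, the level was 339, 438 and 463 CPM in Jarid2 + Aebp2 KO, 223, 263 and 256 in Suz12 KO and 329.7, 361 and 341 in WT. The highest targeting library, at 17.6 CPM, was far under the lowest of the others, at 223 CPM, and the 5 targeting genotypes overlapped one another.

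The targeting genotypes held 3.16% to 3.57% of the WT level of Mtf2. Their mean was lower by a log2 difference of -4.83 (SE 0.120, edgeR adjusted p = 7.55e-18), 28.4-fold lower than in the genotypes that leave Mtf2 intact. No step that added Jarid2, Aebp2 or Epop loss to Pcl1-3 KO moved it past the threshold. From 100 to 421 counts remained in each targeting library.

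Phf19 (ENSMUSG00000026873.9) stood apart from the other targeted genes. Its level was 1.62, 1.26 and 1.25 CPM in the full accessory knockout, 2.57, 1.37 and 2.16 in Pcl1-3 + Jarid2 + Aebp2 KO, 2.23, 1.83 and 1.99 in Pcl1-3 + Jarid2 KO, 3.27, 2.84 and 3.18 in Pcl1-3 + Epop KO and 4.25, 2.32 and 2.86 in Pcl1-3 KO. It was 9.70, 7.49 and 12.8 CPM in Jarid2 + Aebp2 KO, 4.21, 5.04 and 8.34 in Suz12 KO and 3.80, 4.76 and 5.75 in WT. Here the targeting libraries reached 4.25 CPM and overlapped the lowest WT and Suz12 KO libraries.

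The mean over targeting genotypes was lower by a log2 difference of -1.55 (SE 0.146, edgeR adjusted p = 4.56e-08), 2.94-fold lower than in the others. In Pcl1-3 KO itself Phf19 averaged 3.14 ± 0.996 CPM, against 4.77 ± 0.976 CPM in WT (SD, n = 3 each), a log2 difference of -0.62 (SE 0.287) that did not pass the threshold (edgeR adjusted p = 0.184). The lowest WT library, at 3.80 CPM, was below the highest Pcl1-3 KO library. In Pcl1-3 + Epop KO the difference was -0.63 (SE 0.290, edgeR adjusted p = 0.196), although its 3 libraries did not overlap WT. Counts of Phf19 were low, from 15 to 161 per library.

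Jarid2 (ENSMUSG00000038518.15) kept a remainder that differed by genotype. Its level was 7.54, 6.15 and 5.34 CPM in the full accessory knockout, 6.41, 5.26 and 4.07 in Pcl1-3 + Jarid2 + Aebp2 KO, 5.83, 6.31 and 6.84 in Pcl1-3 + Jarid2 KO and 11.7, 10.6 and 11.6 in Jarid2 + Aebp2 KO. In genotypes that do not target it, the level was 265, 230.3 and 139 CPM in Pcl1-3 + Epop KO, 189, 230.3 and 182 in Pcl1-3 KO, 291, 264 and 239 in Suz12 KO and 247, 202 and 236 in WT. Targeting and other libraries did not overlap, and Jarid2 + Aebp2 KO lay above the other 3 targeting genotypes in all its libraries.

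As a share of WT, the Jarid2 remainder was 4.91% in Jarid2 + Aebp2 KO and 2.31% to 2.77% in the other 3. Over all targeting genotypes the log2 difference was -5.01 (SE 0.107, edgeR adjusted p = 7.85e-19), 32.1-fold lower than in the others.

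Aebp2 (ENSMUSG00000030232.18) kept almost no reads. Its read counts were 0, 6 and 2 in the full accessory knockout, 3, 3 and 1 in Pcl1-3 + Jarid2 + Aebp2 KO and 0, 2 and 0 in Jarid2 + Aebp2 KO. In WT they were 1125, 1120 and 1291, and no library of an untargeted genotype held fewer than 796. The 9 targeting libraries held 17 counts in all, 0.1245% of the level of the others (95% exact counting interval 0.07249 to 0.1993). The fitted log2 difference was -9.72 (SE 0.202, edgeR adjusted p = 4.73e-19); without replicate 2 of Jarid2 + Aebp2 KO, which holds that genotype's only counts, it was -10.6.

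**Figure D2:**
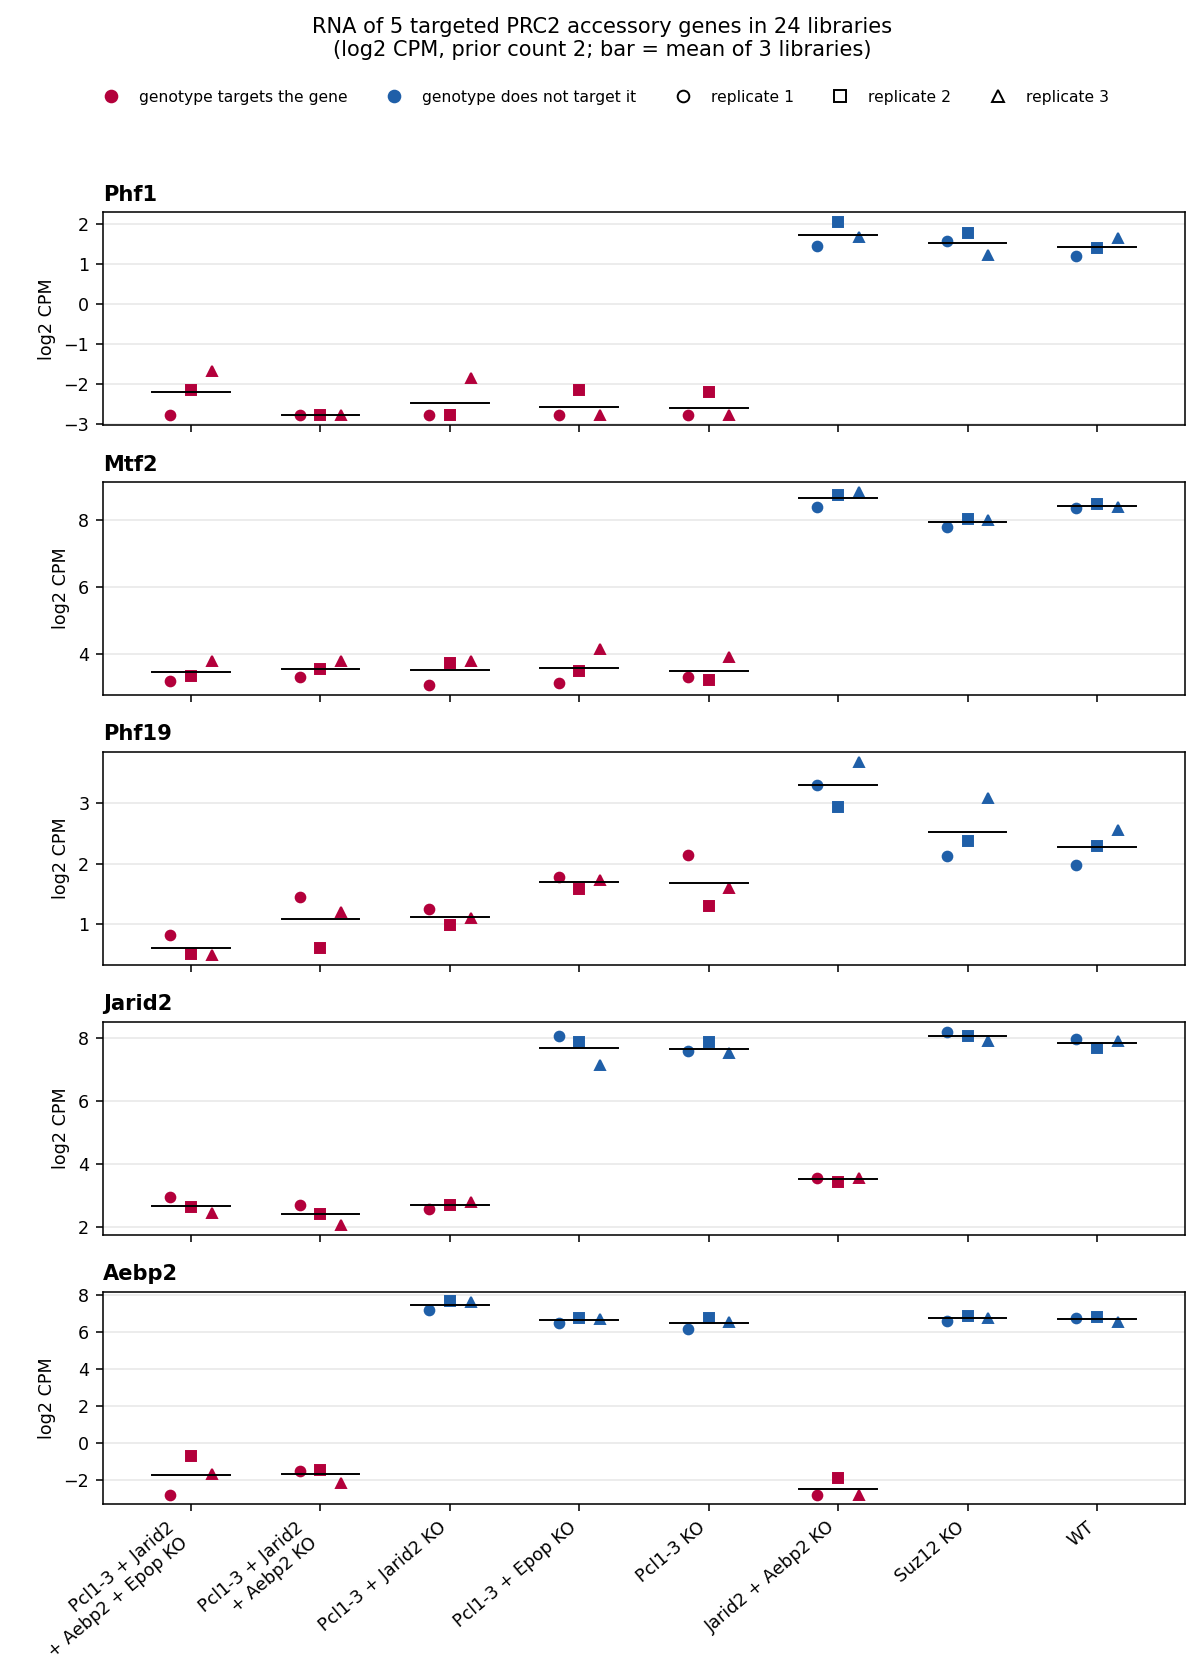
Level of the 5 genes with RNA counts as log2 CPM with a prior count of 2 (vertical axis; each panel has its own scale) in 8 genotypes (horizontal axis, WT at the right); points are libraries, the shape gives the replicate number, red marks genotypes that target the gene and bars are means of 3 libraries. Red and blue points are far apart for Phf1, Mtf2, Jarid2 and Aebp2 and come together for Phf19.

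Across all IDs, 17.6% fell in genotypes with the Pcl1-3 knockout against those without, 14.6% with the Jarid2 knockout and 9.48% with the Aebp2 knockout (edgeR adjusted p under 0.05). The knocked-out genes themselves, 3 of 3, 1 of 1 and 1 of 1, were among these. The genes counted are the ones that the labels name, so these counts bear only on the labels and say nothing more of the genes. The alleles are not stated, so how far each knockout should lower the RNA of its gene is unknown. For Phf1, Mtf2, Jarid2 and Aebp2 no library went against its label; the labels for Suz12 and Epop loss were not checked here, and neither were markers of embryonic stem cells, since the files give IDs without symbols.

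SUZ12 is the core subunit on which the assembly of PRC2 depends. None of the 5 accessory genes passed in Suz12 KO over WT in the main edgeR fit or with DESeq2, against 39.1% of all IDs in the main fit. Of the 5, 1, Mtf2, had an unadjusted edgeR p under 0.05. Mtf2 averaged 247 ± 21.3 CPM in Suz12 KO and 344 ± 16.1 CPM in WT (SD, n = 3 each), and the libraries did not overlap. The log2 difference was -0.48 (SE 0.212, edgeR adjusted p = 0.0809). It was past the threshold under some other settings, with an edgeR adjusted p of 0.00375 without the filter on low counts and 0.00343 with a replicate block. With only these genotypes in the fit, a setting chosen after seeing the data, the edgeR adjusted p was 0.00184.

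The others gave log2 differences in Suz12 KO over WT of 0.10 for Phf1 (95% interval -0.701 to 0.907), 0.29 for Phf19 (-0.284 to 0.869), 0.21 for Jarid2 (-0.145 to 0.567) and 0.03 for Aebp2 (-0.348 to 0.410). Phf19, whose start lies in peaks of all 3 proteins, averaged 5.86 ± 2.18 CPM in Suz12 KO and 4.77 ± 0.976 CPM in WT, with overlapping libraries. The interval for Phf19 spans both lower and higher levels.

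Jarid2 and Aebp2 did not pass in Pcl1-3 KO over WT either. Jarid2 gave a log2 difference of -0.19 in Pcl1-3 KO over WT (95% interval -0.547 to 0.166) and Aebp2 one of -0.21 (-0.592 to 0.167). Beside this, 8.70% of all IDs passed in Pcl1-3 KO over WT, and 2 of the 5 genes did, Phf1 and Mtf2, both targeted. In Pcl1-3 + Epop KO over WT the same counts were 7.61% and 2 of 5, again Phf1 and Mtf2. Both shares depended on single libraries. In Pcl1-3 KO over WT the share was 3.07% without WT replicate 1, 3.12% without Pcl1-3 KO replicate 3 and 4.37% to 5.58% without Pcl1-3 KO replicate 1 or WT replicate 2 or 3. In Pcl1-3 + Epop KO over WT it was 3.45% without Pcl1-3 + Epop KO replicate 3 and 12.1% without its replicate 1, and 3.06%, 4.66% and 4.75% without WT replicate 1, 2 or 3. Adding Epop loss to Pcl1-3 KO moved none of the 5 with edgeR or DESeq2, none at an unadjusted edgeR p under 0.05, and 0.00683% of all IDs, which is 1 ID.

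Aebp2 rose where Jarid2 was lost on top of the Polycomb-like genes. Its level was 144, 201 and 198 CPM in Pcl1-3 + Jarid2 KO, against 70.5, 108.8 and 91.9 CPM in Pcl1-3 KO and 109.6, 111.1 and 93.99 CPM in WT. All 3 Pcl1-3 + Jarid2 KO libraries were above every library of both other genotypes and also above those of Pcl1-3 + Epop KO (88.7, 107 and 103 CPM) and Suz12 KO (97.6, 115 and 109 CPM).

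The log2 difference of Aebp2 was 1.00 over Pcl1-3 KO (SE 0.183, edgeR adjusted p = 0.00148), which is 2.00-fold, and 0.79 over WT (SE 0.183, edgeR adjusted p = 0.00479), which is 1.73-fold. Both kept their side of the threshold with any 1 library left out, the highest edgeR adjusted p being 0.0192 over Pcl1-3 KO and 0.0334 over WT. In Pcl1-3 + Jarid2 KO over Pcl1-3 KO 6.27% of all IDs passed, and of the 5 genes Jarid2, the gene newly targeted, fell by 4.98 (SE 0.213, edgeR adjusted p = 1.70e-12) and Aebp2 rose. No genotype with RNA libraries lacks Jarid2 with both the Polycomb-like genes and Aebp2 intact, so the level of Aebp2 after Jarid2 loss alone is not among these values. With Aebp2 targeted in addition, 0.901% of all IDs passed over Pcl1-3 + Jarid2 KO, and of the 5 genes only Aebp2 did, at -9.94 (SE 0.340, edgeR adjusted p = 1.68e-14). This share was 0.232% without Pcl1-3 + Jarid2 KO replicate 3, and 0.338% to 0.45% without Pcl1-3 + Jarid2 + Aebp2 KO replicate 1 or 2 or Pcl1-3 + Jarid2 KO replicate 2. The share over Pcl1-3 KO was 2.75% to 3.82% without replicate 2 or 3 of Pcl1-3 + Jarid2 KO or replicate 1 or 3 of Pcl1-3 KO.

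Phf19 was higher than in WT in 1 genotype that leaves it intact and lower in 3 of the 5 that target it. In Jarid2 + Aebp2 KO, where it is intact, it averaged 9.99 ± 2.65 CPM, against 4.77 ± 0.976 CPM in WT (SD, n = 3 each), and no library overlapped. The log2 difference was 1.06 (SE 0.276, edgeR adjusted p = 0.0340), 2.08-fold higher. This call passed in 1 of 6 fits that left out a library, the one without replicate 2 of Jarid2 + Aebp2 KO. It was lost without any WT library (edgeR adjusted p = 0.173, 0.0922 and 0.0519) and without replicate 1 or replicate 3 of Jarid2 + Aebp2 KO (0.0783 and 0.211). Those fits had no replicate block. With all libraries kept, the edgeR adjusted p was 0.00466 with a replicate block and 0.0422 with only these genotypes, the latter chosen after seeing the data. The DESeq2 adjusted p was 0.0109. In that comparison 4.39% of all IDs passed, but 0.543% without Jarid2 + Aebp2 KO replicate 3, 0.629% without WT replicate 1 and 1.63% to 2.28% without Jarid2 + Aebp2 KO replicate 1 or WT replicate 2 or 3. Of the 5 genes Jarid2 and Aebp2 fell and Phf19 rose.

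The untargeted Polycomb-like genes did not pass beside it in Jarid2 + Aebp2 KO over WT. Mtf2 gave a log2 difference of 0.27 (95% interval -0.175 to 0.705) and Phf1 one of 0.32 (-0.482 to 1.12).

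Among the 5 genotypes that target Phf19, the 3 that also lack Jarid2 passed the threshold against WT and the 2 that keep it did not. Pcl1-3 + Jarid2 KO kept 41.6% of the WT level (95% exact counting interval 31.6 to 54.4) and a log2 difference of -1.24 (SE 0.299, edgeR adjusted p = 0.00621). Pcl1-3 + Jarid2 + Aebp2 KO kept 41.6% as well (31.5 to 54.6; log2 difference -1.24, SE 0.300, edgeR adjusted p = 0.00716). The full accessory knockout kept 28.1% (20 to 38.9; log2 difference -1.80, SE 0.316, edgeR adjusted p = 1.75e-04), while Pcl1-3 KO kept 61.9% (49.5 to 77.3).

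These 3 comparisons share the WT libraries and their background was high: 17.2%, 15.0% and 32.9% of all IDs passed, with 5 of 5 genes called in each. Without WT replicate 1 the first 2 shares were 9.83% and 9.21%, and without replicate 3 of the knockout they were 9.53% and 9.37%. Set directly against one another, Pcl1-3 + Jarid2 KO over Pcl1-3 KO gave -0.62 (SE 0.300, edgeR adjusted p = 0.267), and the full accessory knockout over Pcl1-3 + Jarid2 + Aebp2 KO gave -0.56 (SE 0.330, edgeR adjusted p = 0.299). The full accessory knockout over Pcl1-3 KO gave -1.17 (SE 0.318, edgeR adjusted p = 0.00786), beside 31.5% of all IDs, and lost its call without replicate 1 of Pcl1-3 KO (edgeR adjusted p = 0.0509). The last step, the loss of Epop, called none of the 5 genes with edgeR or DESeq2, and 1, Phf1 at 3 counts against 0, at an unadjusted edgeR p under 0.05, beside 11.2% of all IDs.

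By mean CPM the order for Phf19 was Jarid2 + Aebp2 KO, Suz12 KO, WT, Pcl1-3 KO, Pcl1-3 + Epop KO, Pcl1-3 + Jarid2 + Aebp2 KO, Pcl1-3 + Jarid2 KO and the full accessory knockout. Libraries of neighbours in that order overlapped at every step except between Pcl1-3 + Epop KO and Pcl1-3 + Jarid2 + Aebp2 KO and between Pcl1-3 + Jarid2 KO and the full accessory knockout. In genotypes that leave the gene intact, the order for Aebp2 was Pcl1-3 + Jarid2 KO, Suz12 KO, WT, Pcl1-3 + Epop KO and Pcl1-3 KO, and only the highest did not overlap its neighbour. For Jarid2 it was Suz12 KO, WT, Pcl1-3 + Epop KO and Pcl1-3 KO, with every neighbour overlapping. For both Mtf2 and Phf1 Jarid2 + Aebp2 KO came first; it was followed by WT and Suz12 KO for Mtf2, where the last step did not overlap, and by Suz12 KO and WT for Phf1, where all did.

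**Figure D3:**
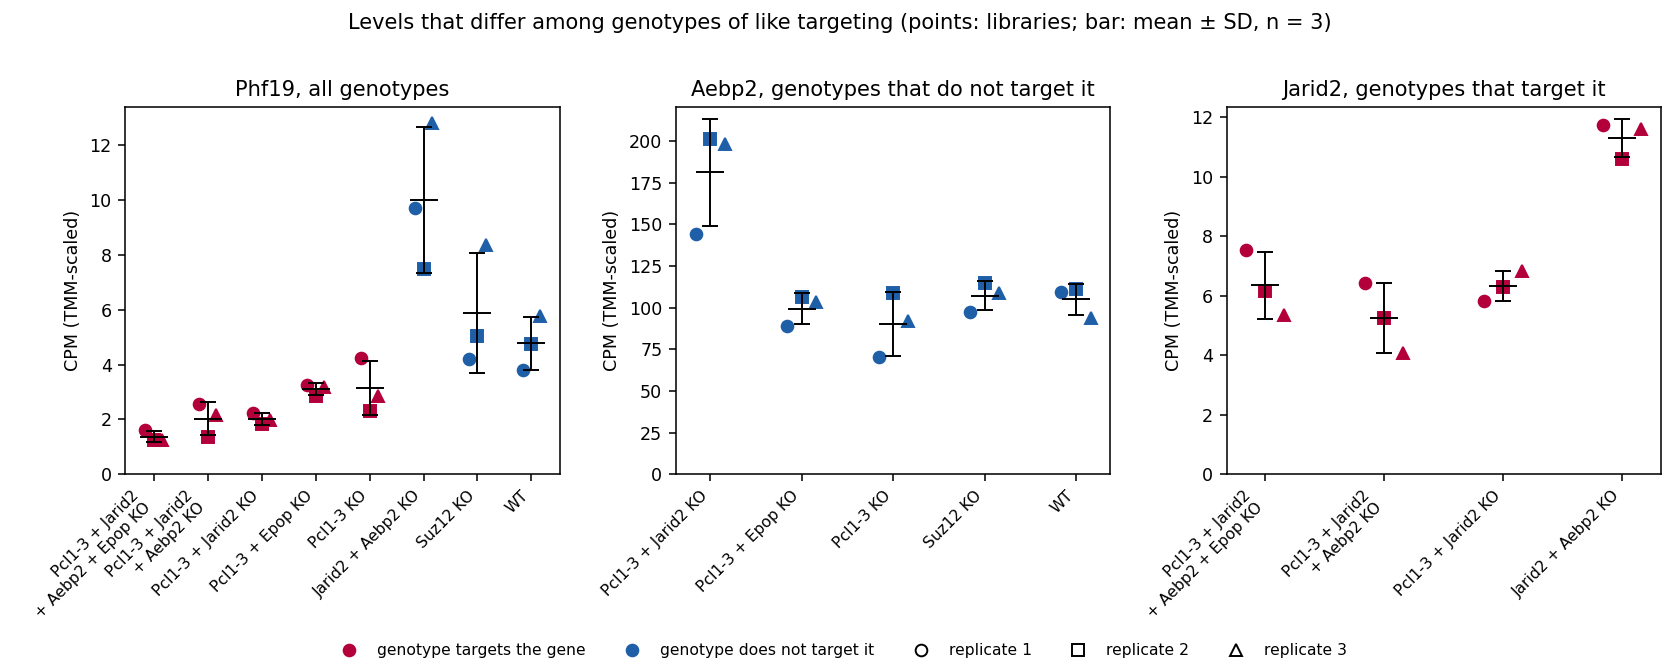
Level in CPM (vertical axes, from 0) of Phf19 in all genotypes, of Aebp2 in genotypes that do not target it and of Jarid2 in genotypes that target it; points are libraries, bars are means ± SD of 3 libraries, and WT is at the right where shown. Phf19 is highest in Jarid2 + Aebp2 KO at 7.49 to 12.8 CPM, Aebp2 in Pcl1-3 + Jarid2 KO at 144 to 201 CPM and remaining Jarid2 in Jarid2 + Aebp2 KO at 10.6 to 11.7 CPM.

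In the main fit, the estimated effect of losing Jarid2 and Aebp2 on Phf19 differed between Pcl1-3 KO and WT. The effect was -0.61 on the log2 scale in Pcl1-3 KO (SE 0.301, edgeR adjusted p = 0.269) and 1.06 in WT, and the difference between them was -1.67 (SE 0.408, edgeR adjusted p = 0.0173), beside 7.36% of all IDs. That share was 2.89% to 4.65% without WT replicate 1 or 2, replicate 1 or 3 of Pcl1-3 KO or of Jarid2 + Aebp2 KO, or replicate 1 or 2 of Pcl1-3 + Jarid2 + Aebp2 KO. Leaving out 1 library at a time kept the call in 8 of 12 fits, with differences of -1.88 to -1.42. It was lost without WT replicate 1, Pcl1-3 KO replicate 1, Pcl1-3 + Jarid2 + Aebp2 KO replicate 2 or Jarid2 + Aebp2 KO replicate 3, with an edgeR adjusted p of up to 0.0600. Phf19 itself is targeted in both genotypes with the Pcl1-3 knockout and in neither of the others.

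The remainder of Jarid2 was likewise lower with the Polycomb-like genes lost. It averaged 5.25 ± 1.17 CPM in Pcl1-3 + Jarid2 + Aebp2 KO and 11.3 ± 0.628 CPM in Jarid2 + Aebp2 KO (SD, n = 3 each), a log2 difference of -1.10 (SE 0.212, edgeR adjusted p = 0.00118). That call held with any 1 library left out, the highest edgeR adjusted p being 0.0110. Of the 5 genes 4 were lower in that comparison, as were 6.83% of all IDs: Phf1, Mtf2 and Phf19, which it targets, and Jarid2, targeted on both sides.

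The effect of losing Jarid2 and Aebp2 on Jarid2 RNA was -5.24 in Pcl1-3 KO and -4.34 in WT, a difference of -0.91 (SE 0.272, edgeR adjusted p = 0.0459). This difference kept its call in 2 of 12 fits without 1 library, those without Pcl1-3 + Jarid2 + Aebp2 KO replicate 1 or Jarid2 + Aebp2 KO replicate 2; in the others the edgeR adjusted p reached 0.113. Whether both genotypes carry the same Jarid2 allele is not stated. The second difference tested, between the effects of Epop loss with and without Jarid2 and Aebp2 loss in Pcl1-3 KO cells, called none of the 5 genes with edgeR or DESeq2, and none at an unadjusted edgeR p under 0.05, beside 2.09% of all IDs.

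**Figure D4:**
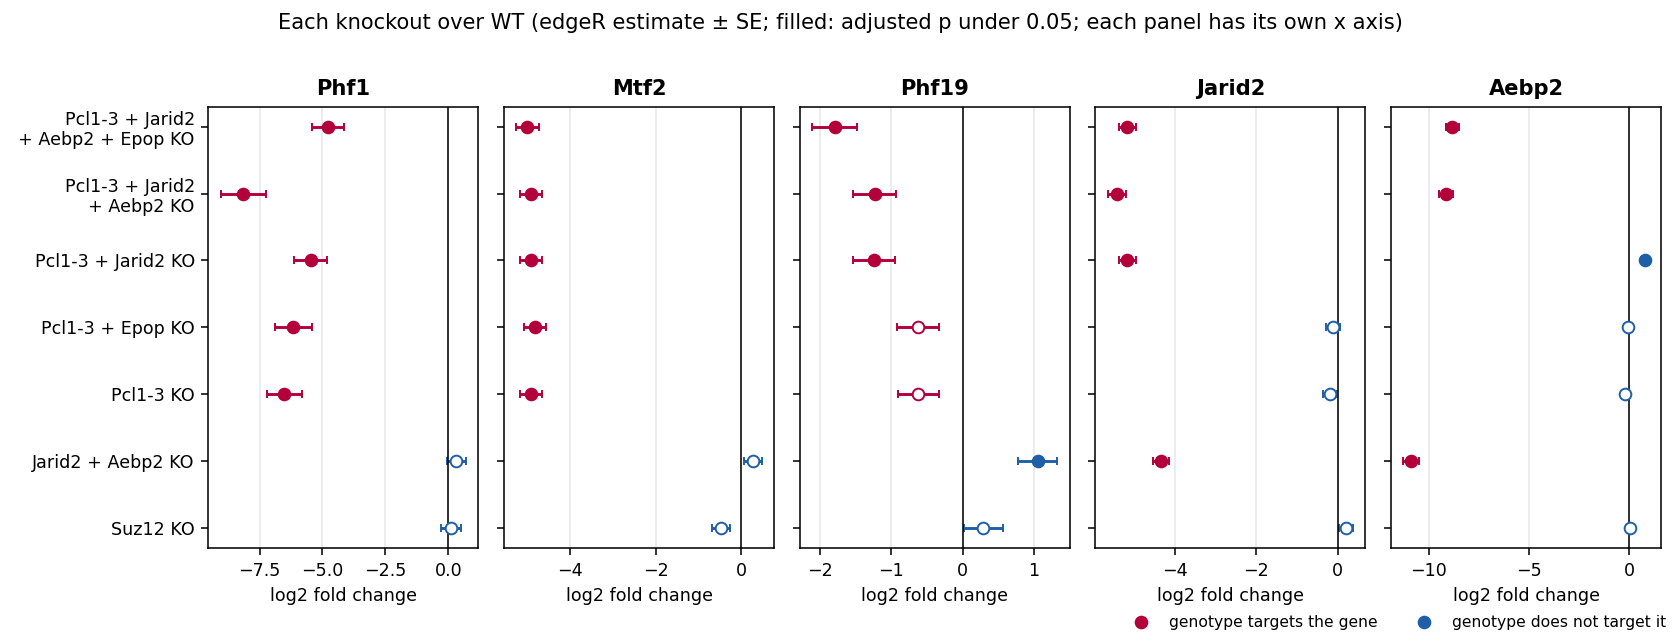
Log2 fold change of each gene in each knockout over WT (horizontal axis, own scale in each panel, edgeR estimate ± SE). Genotypes run down the page, with points red where the genotype targets the gene and filled where the adjusted p is under 0.05. Fitted values of Phf1 in targeting genotypes rest on 0 to 3 counts and depend on the default prior count of the edgeR fit. Untargeted genes lie near 0 except Aebp2 in Pcl1-3 + Jarid2 KO (0.79) and Phf19 in Jarid2 + Aebp2 KO (1.06), and Mtf2 in Suz12 KO (-0.48) is not filled.

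The full accessory knockout set against Suz12 KO compares loss of the accessory genes with loss of the core. All 5 genes were lower there, as targeted genes, and 22.2% of all IDs were lower. Phf19 averaged 1.38 ± 0.208 CPM in the full accessory knockout and 5.86 ± 2.18 CPM in Suz12 KO (SD, n = 3 each), without overlap, a log2 difference of -2.09 (SE 0.310, edgeR adjusted p = 1.68e-05).

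The pattern of Phf19 over the 8 genotypes was shared most closely by ENSMUSG00000036256.13 and ENSMUSG00000058656.13, which the files do not pair with symbols. Likeness was the root mean square difference between the 8 genotype means of log2 CPM, each gene centred on its own mean, and came to 0.21 and 0.255; the Phf19 means span 2.71. ENSMUSG00000036256.13 averaged 11.6 CPM in Jarid2 + Aebp2 KO, 2.58 CPM in the full accessory knockout and 7.86 CPM in WT. ENSMUSG00000058656.13 averaged 2.11 CPM in Jarid2 + Aebp2 KO, 0.307 CPM in the full accessory knockout and 1.07 CPM in WT. Both IDs were picked for this likeness among 14650, over 24 libraries that all genes share, so it is a description only. Phf1 and Mtf2 also had IDs outside the 6 genes near their patterns, picked in the same way. The nearest came to 0.336 for Phf1, whose means span 4.5, and to 0.393 for Mtf2, whose means span 5.24. For Jarid2 and Aebp2 the nearest came to 1.45 and 3.35, with spans of 5.64 and 9.98. Why IDs outside the targeted genes follow Phf1 and Mtf2 was not tested.

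Other genes of the pathway could be placed against the peak lists, while their RNA is not analysed here. None of the 6 genes of the PRC2 core, Ezh1, Ezh2, Eed, Suz12, Rbbp4 and Rbbp7, had a peak of any list within 1 kb. Of the 3 other accessory genes, Ezhip, whose product inhibits PRC2, had peaks of all 3 lists, and Lcor and Lcorl had a PCL2 peak each. Among EPOP partners, Elob, the gene of Elongin B, had a PCL2 peak and Eloc and Usp7 had none. Of the H3K27 demethylases, Kdm6b had a SUZ12 and a PCL2 peak and Kdm6a none.

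Among 22 genes of Polycomb repressive complex 1, which ubiquitinates histone H2A, 9 had a SUZ12 peak, 8 a JARID2 peak and 13 a PCL2 peak. Those with all 3 included Bmi1 and Pcgf5, which code for PCGF proteins that define forms of that complex, and Kdm2b, whose product binds unmethylated CpG DNA. Against the background shares given above, 24.2%, 14.3% and 42.0%, these counts describe the lists and were not tested. Phf19 and Ezhip were thus the 2 genes, of the 6 targeted and the 9 core and other accessory genes, with peaks of all 3 lists.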

How the data were processed

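For each RNA library the authors deposited raw counts of reads by Ensembl gene, and for the series 3 peak lists with only a chromosome, a start and an end in base pairs. The submitters' processing notes name STAR, HTSeq, Trimmomatic, Bowtie2 and mm10; no version, strand setting or peak caller is given in the sources used here. Per the labels' protocols, total RNA was made into libraries with a TruSeq kit.

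Counts of all 24 libraries were fitted together with edgeR 4.0.16 (R 4.3.3): filterByExpr kept 14650 of 55450 IDs, 24056 of which had no count, followed by TMM scaling, 1 mean per genotype and the robust quasi-likelihood test. A Benjamini-Hochberg adjusted p under 0.05 over all 14650 IDs was the threshold. Log2 CPM used a prior count of 2, and fitted log2 differences used the default prior count of the edgeR fit. Comparisons of means over genotypes weight each genotype equally. Low counts were compared with exact (Clopper-Pearson) 95% intervals on the ratio of summed counts to library sizes. SE is the log2 difference divided by the square root of F. The fit was tested on simulated counts with a fixed dispersion and no variation shared by replicate number, so that test does not cover such variation. No pair of replicates agreed within counting noise. The main fit had no replicate block, because the rule for using a block required every same-numbered pair of libraries to correlate over 0.1. Of 84 such pairs 75 did, and 24 of 24 libraries correlated best with their own number. Main-fit p-values therefore leave this shared variation in the scatter, and values with the block are given as an alternative.

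Alternatives were RLE factors, total counts, no filter, DESeq2 1.42.0, a replicate block, fewer genotypes, an additive model, and each library left out. The difference-of-effects tests on members numbered 10. Peaks were joined to genes by a minimum overlap of 1 bp within 1 kb.

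The members and lists were chosen with earlier results of these data known. Genes named were the members, the genes of the pathway lists and the 2 IDs most like a member. The fixed rule for lists on RNA and the rows for Epop could not be run.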

Additional observations from a re-analysis of the deposited data

Results flagged for a closer look

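Among 10 tests of whether an effect differed between backgrounds on the 5 genes with counts, 2 passed. For Phf19, the effect of losing Jarid2 and Aebp2 in Pcl1-3 KO minus that in WT was -1.67 on the log2 scale (SE 0.408, edgeR adjusted p = 0.0173). For Jarid2 the same difference was -0.91 (SE 0.272, edgeR adjusted p = 0.0459). Both comparisons use the same 12 libraries. The first kept its call in 8 of 12 fits without 1 library and the second in 2 of 12. Phf19 itself is targeted in both genotypes with the Pcl1-3 knockout and in neither of the others. Jarid2 is itself a gene lost in both effects, and whether the same Jarid2 allele was used in both is not stated.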

How the results depend on the processing

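For 10 results, the targeting comparisons of the 5 genes with counts, those of Phf1, Mtf2 and Phf19 in Pcl1-3 KO over WT, Jarid2 in Pcl1-3 + Jarid2 KO over Pcl1-3 KO and Aebp2 in Pcl1-3 + Jarid2 + Aebp2 KO over Pcl1-3 + Jarid2 KO, all 65 values under other settings and all 150 without 1 library kept direction and side of the threshold. The log2 differences over other genotypes ran without 1 library from -6.88 to -6.17 for Phf1, -4.89 to -4.78 for Mtf2, -1.62 to -1.43 for Phf19, -5.06 to -4.96 for Jarid2 and -10.6 to -9.56 for Aebp2. The additive loss model gave -7.15 for Phf1 and -10.3 for Aebp2, both over 1.5 times the main fold. In Pcl1-3 KO over WT the ranges were -8.14 to -5.70 for Phf1 (without replicate 2 or 3 of Pcl1-3 KO), -5.20 to -4.78 for Mtf2 and -0.87 to -0.46 for Phf19, which never passed; Jarid2 and Aebp2 ranged from -5.05 to -4.87 and from -10.1 to -9.66 at the step that targets them.

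Of 204 values of 34 further results under other settings, 201 kept direction and call; the other 3 are those of Mtf2 in Suz12 KO over WT, at -0.47 without the filter, -0.48 with the replicate block (edgeR adjusted p = 0.00343) and -0.45 with only these genotypes, the last chosen after seeing the data. Without 1 library, 190 of 216 kept both, 20 lost their call and 6 changed sign. Sign changes were never past the threshold: in Suz12 KO over WT, Phf1 (-0.052 to 0.25), Phf19 (-0.064 to 0.49) and Aebp2 (-0.038 to 0.11), and in Pcl1-3 + Epop KO over WT, Jarid2 (-0.30 to 0.12) and Aebp2 (-0.16 to 0.0019). Phf19 lost calls in Jarid2 + Aebp2 KO over WT (0.84 to 1.22) and in the full accessory knockout over Pcl1-3 KO (-1.34 to -0.93), and both differences of effects lost theirs. The cause was not tested. The values that moved by over 1.5 times are all for Phf1 or Aebp2, whose targeted libraries hold few counts; over WT, Aebp2 was -13.5 in Jarid2 + Aebp2 KO and -10.1 in the full accessory knockout without replicate 2 of each, against -10.9 and -8.82 with it.

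Libraries tracked their replicate number. Same-numbered libraries of different genotypes correlated in their deviations at 0.0315 to 0.71 (median 0.26, 75 of 84 pairs over 0.1). For differently numbered ones the median was -0.131, with 11 of 168 over 0.1. Of 24 libraries, 24 correlated best with their own number. With the replicate block, Phf19 in Pcl1-3 KO over WT was -0.65 (edgeR adjusted p = 0.0685), and IDs called in Pcl1-3 KO and Jarid2 + Aebp2 KO over WT were 2895 and 2281, against 1274 and 643 without it. Other shares moved with the block: 18.6% instead of 7.61% in Pcl1-3 + Epop KO, 27.7% instead of 17.2% in Pcl1-3 + Jarid2 KO and 26.3% instead of 15.0% in Pcl1-3 + Jarid2 + Aebp2 KO over WT, 13.3% instead of 6.27% in Pcl1-3 + Jarid2 KO over Pcl1-3 KO, 2.95% instead of 0.901% at the next step, 23.8% instead of 13.7% in Pcl1-3 + Jarid2 + Aebp2 KO over Jarid2 + Aebp2 KO and 18.7% instead of 7.36% for the difference of effects. Without the filter, 2001, 1810 and 1444 IDs were called in Pcl1-3 KO, Pcl1-3 + Epop KO and Jarid2 + Aebp2 KO over WT, 391 in Pcl1-3 + Jarid2 + Aebp2 KO over Pcl1-3 + Jarid2 KO and 1696 for the difference of effects; with DESeq2, 1061 in Jarid2 + Aebp2 KO over WT and 237 in Pcl1-3 + Jarid2 + Aebp2 KO over Pcl1-3 + Jarid2 KO. With only the genotypes compared, the share was 1.21% in Pcl1-3 + Epop KO and 30.4% in Pcl1-3 + Jarid2 KO over WT, 0.476% in Pcl1-3 + Jarid2 + Aebp2 KO over Pcl1-3 + Jarid2 KO, 9.82% over Jarid2 + Aebp2 KO and 22.1% in the full accessory knockout over Pcl1-3 KO.

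Without 1 library, 36 of 150 counts of called IDs in 15 comparisons moved by over 1.5 times. Only 1 is not given above, with 8.25% instead of 13.7% in Pcl1-3 + Jarid2 + Aebp2 KO over Jarid2 + Aebp2 KO without Jarid2 + Aebp2 KO replicate 3.

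With peaks of at least 1 kb only, genes with a JARID2 peak fell to 1 (9.18% of all genes) and those with a PCL2 peak to 1 (22.7%). Epop RNA values, planned, were not run. Phf19 and Phf1 had at most 161 and 64 counts per library.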
